A study of Mus musculus with 4 samples.

Results

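Among the enterocytes of the suckling mouse small intestine, the 10% of cells in each library with the largest share of transcripts from Glipr1, Il1a, Egr2, Nradd and Leap2 were described. The transcripts of these 5 genes were counted together as a share of each cell's unique molecular identifiers (UMIs, tags that mark single captured RNA molecules). Cells were first kept when they had 1000 to 6000 detected genes, at least 2000 UMIs and under 20% mitochondrial UMIs, at least 3 of the enterocyte genes Fabp1, Fabp2, Apoa1, Apoa4, Alpi and Lct, and fewer than 2 of the cycling genes Mki67, Top2a, Ube2c, Cdk1 and Birc5. This left 26941 of 36202 called cells, of which 2694 were members of the high group, or 7.44% of all called cells. The members were set against the lowest 50% of kept cells, 13469 cells. The group had been labelled as Il1a and Egr2 high enterocytes, but the data went against that name, because Leap2 supplied 67.7% to 90.8% of the members' UMIs from the 5 genes. The members are therefore called rule-gene high enterocytes below.

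Epithelium was isolated with EDTA and dispase from the jejunum and the ileum of 2 wild-type (WT, C57BL/6J per the study's methods) mice at P6, and each segment gave 1 single-cell library made with the PIP-Seq V T20 kit. The mouse labelled male was processed as batch 1 (ileum 1 and jejunum 1) and the mouse labelled female as batch 2 (ileum 2 and jejunum 2), so mouse, labelled sex and batch cannot be told apart. The 4 libraries held 659, 760, 774 and 501 members in ileum 1, ileum 2, jejunum 1 and jejunum 2, the order in which values per library are given throughout. Xist, the noncoding RNA of the inactive X chromosome, stood at 537, 0.712, 467 and 0.984 CPM (UMIs scaled so that each library or group of cells has the same total), which went against the sex labels of all 4 libraries, and Y-linked Eif2s3y stood at 0.0228, 89.1, 0.109 and 66.4 CPM. Both regions of a mouse matched each other, so the pairing of libraries by mouse was not affected. The ileum libraries were deeper (131400239 and 125067265 UMIs) than the jejunum libraries (64391480 and 57951874 UMIs), and 2 barcodes in all were shared between libraries, with 0 shared among kept cells.

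In the suckling period enterocytes absorb milk fat at the brush border and, in the ileum, take up whole milk protein by endocytosis and digest it in large lysosomal vacuoles. Leap2 encodes a secreted peptide of liver and small intestine that antagonizes the ghrelin receptor. Il1a encodes interleukin 1 alpha, a cytokine of barrier epithelia that acts as an alarm signal when cells are damaged. Egr2 encodes a zinc finger transcription factor of the early growth response family. Nradd encodes a death domain protein related to the p75 neurotrophin receptor, and Glipr1 a protein of the CAP family.

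The 5 genes chose the members, so their levels in these groups are a description and carry no test. Leap2 was the most abundant of them in every library, at 422, 824, 1687 and 1742 CPM in the members against 24.4, 85.3, 314 and 392 CPM in the low cells. Each library counts 1 end of each captured molecule, so no correction for gene length was applied to these levels. Leap2 also led the score in 79.4%, 95.1%, 99.2% and 99.8% of members. Nradd came next, at 124, 127, 99.1 and 80.7 CPM in the members against 14.7, 25.03, 16.5 and 14.4 CPM in the low cells. The other genes were low, and in jejunum 2 the members and low cells were close in Egr2. Egr2 stood at 34.0, 24.1, 23.6 and 19.9 CPM in the members and 7.17, 9.53, 8.99 and 17.3 CPM in the low cells. Glipr1 stood at 25.6, 32.2, 32.6 and 42.3 CPM against 3.69, 8.61, 16.0 and 18.3 CPM. Il1a, with which the group had been named, stood at 17.1, 9.10, 41.6 and 33.2 CPM against 1.65, 1.94, 12.5 and 11.6 CPM.

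**Figure D1:**
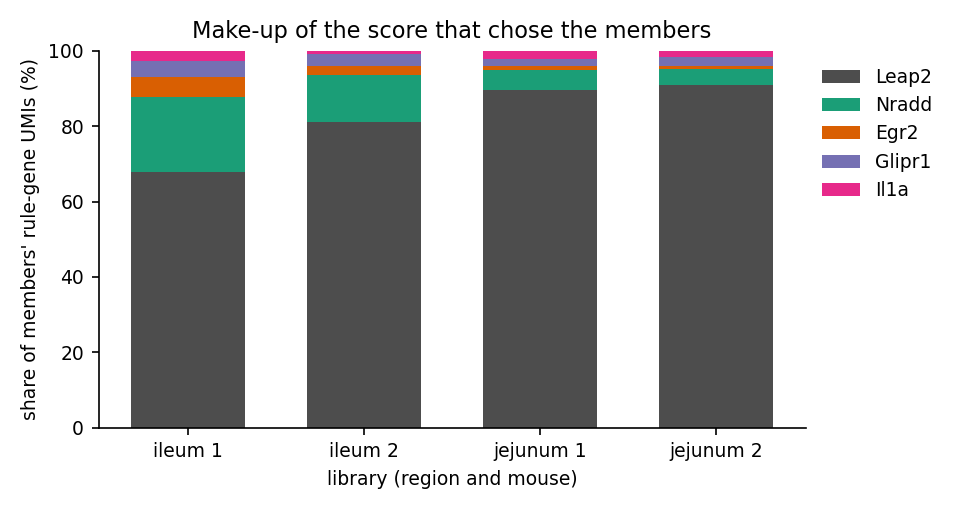
Share of the members' rule-gene UMIs that came from each of the 5 genes (vertical axis, percent) in the 4 libraries, numbered by region and mouse. Leap2 made up 67.7% of these UMIs in ileum 1 and 90.8% in jejunum 2, and Il1a and Egr2 together were the thin bands near the top of each bar.

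Most members carried UMIs of 1 or 2 of the genes. Exactly 1 was detected in 17.1%, 20%, 41.6% and 40.3% of members and exactly 2 in 41.7%, 44.6%, 40.2% and 32.9%, while all 5 were detected in 12, 4, 4 and 10 members. An Il1a UMI was found in 17.5%, 10%, 19.1% and 24.0% of members and an Egr2 UMI in 30.7%, 21.8%, 10.7% and 13.2%, whereas a Leap2 UMI was found in 96.5%, 99.3%, 100% and 100%. The limit of the group ran through a continuous range of scores. The last member and the first cell outside had scores of 471.7 and 471.5 CPM in ileum 1, 809.2 and 808.9 CPM in ileum 2, 1553 and 1552 CPM in jejunum 1 and 1639 and 1638 CPM in jejunum 2. A group of the same size chosen on Leap2 alone shared 67.5%, 79.3%, 83.3% and 84.2% of its cells with the members, and a group chosen on Il1a and Egr2 alone shared 22.3%, 18.7%, 21.6% and 14.4%. Enterocytes chosen in the same way on Apcdd1 and Adora2b shared 22.6%, 17.9%, 14.9% and 17.6% of cells with the members, and those chosen on Nt5e and Sprr2a2 shared 2.43%, 1.97%, 7.75% and 8.38%. These choices share libraries and depth, so the overlaps are given as a description.

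The members held more UMIs per cell and a smaller mitochondrial share than the low cells. Median UMIs were 17672, 13208.5, 4930.5 and 8715 in the members against 8780.5, 8320, 4232 and 4934 in the low cells, and median mitochondrial shares were 3.38%, 3.296%, 4.28% and 5.12% against 4.03%, 4.69%, 8.66% and 12.1%. A cell with few UMIs often has a score of 0, and 32.1%, 22.1%, 14.0% and 9.94% of kept cells had no UMI of the 5 genes. The comparisons below were therefore repeated with every cell thinned to 2000 UMIs and with low cells matched to the members on UMIs.

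To ask whether the 5 genes were found in the same cells, each gene was left out in turn, the members and low cells were chosen on the other 4, and the gene left out was then tested (edgeR quasi-likelihood test on counts summed per library and group, with the library as a block, adjusted over all genes tested). Nradd, Il1a and Leap2 rose in cells chosen without them, in 4 of 4 libraries each. Nradd was higher by 1.34 ± 0.10 on the log2 scale (SE, n = 4 libraries, edgeR adjusted p = 1.48e-05), or 2.53-fold. Its levels were 73.57, 87.23, 66.46 and 57.48 CPM in the cells chosen as high and 35.88, 40.43, 27.50 and 19.09 CPM in those chosen as low, with no overlap between the groups. This was a larger change than that of the other rule genes left out in the same way, although the differences between genes were not tested.

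Il1a was higher by 0.98 ± 0.14 (edgeR adjusted p = 0.00105), or 1.97-fold, in cells chosen without it. It stood at 10.81, 6.97, 26.63 and 24.40 CPM in the high cells and 4.62, 3.11, 18.07 and 15.60 CPM in the low cells, so the groups overlapped across regions but were separate within each library. With every cell thinned to 2000 UMIs an Il1a UMI was found in 2.73%, 1.18%, 5.56% and 3.79% of high cells and in 0.85%, 0.58%, 3.28% and 2.87% of low cells. Free RNA can give such UMIs, and its part was not tested. Cells with 2 or more of the cycling genes were mostly set aside from the enterocytes for that reason. They held Il1a at 3.11, 1.88, 8.31 and 5.57 CPM over 516, 503, 481 and 457 cells, below these low cells in every library. The few cells with immune markers (10, 7, 13 and 7) held Il1a at 0, 0, 32.1 and 22.5 CPM, above these low cells in the jejunum. Those values rest on 0, 0, 4 and 1 UMIs.

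Leap2 was higher by 0.59 ± 0.07 (edgeR adjusted p = 0.000166) in cells chosen on the other 4 genes. Its levels were 180.02, 401.21, 865.20 and 958.19 CPM against 101.48, 239.89, 653.82 and 779.01 CPM. Egr2 and Glipr1 did not pass the test. Egr2 differed by 0.07 ± 0.13 (95% interval from the SE -0.17 to 0.32, edgeR adjusted p = 0.717), with 18.59, 16.12, 14.40 and 15.16 CPM in the high cells and 19.01, 14.84, 12.33 and 21.21 CPM in the low cells. Glipr1 differed by 0.14 ± 0.12 (95% interval -0.09 to 0.36, edgeR adjusted p = 0.433), with 12.65, 19.52, 18.93 and 23.25 CPM against 10.88, 16.22, 22.53 and 26.58 CPM. For both genes the high cells had the higher level in 2 of 4 libraries, and for Glipr1 the mean level over the 4 libraries ran the other way (18.6 against 19.1 CPM). Of all genes tested, 14.2%, 13.5%, 14.3%, 12.8% and 10.5% were called higher in the cells chosen without Glipr1, Il1a, Egr2, Nradd and Leap2, so a call by itself was not rare. Without the library as a block none of the 5 genes passed (edgeR adjusted p = 0.0948 for Nradd, 0.666 for Il1a and 1.00 for Leap2). Over the other 15 alternative settings Nradd, Il1a and Leap2 were called in 15, with ranges of 0.76 to 1.49, 0.57 to 1.12 and 0.21 to 1.70 on the log2 scale, whereas Egr2 was called in 0 and Glipr1 in 1. In 1 of these settings the cells were chosen on all 5 genes in a random part of the UMIs and measured in the rest. There the gene tested had helped to choose its own cells, and the call of Glipr1 came from that setting. The counts and ranges of the other genes include that setting too, so it is no support for any of them. With 1 library left out Leap2 ranged from 0.50 to 0.69.

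**Figure D2:**
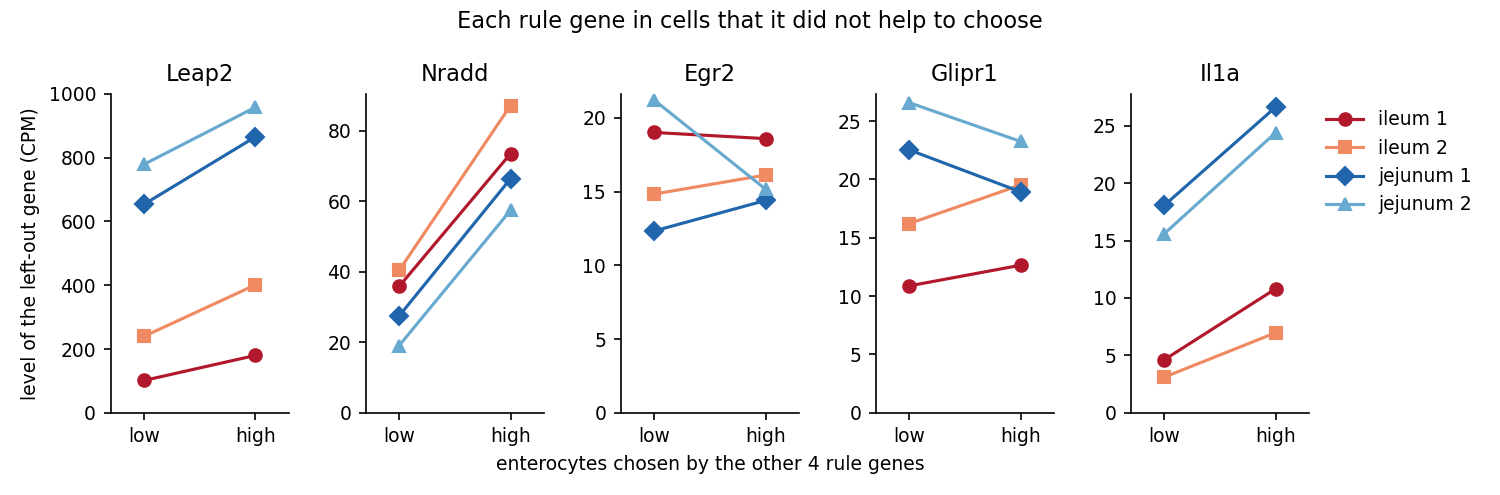
Levels of each rule gene in cells chosen as high and as low on the other 4 genes, in the 4 libraries (CPM, linear axes from 0, a panel for each gene). Nradd, Il1a and Leap2 were higher in the high cells of every library, while Egr2 and Glipr1 were higher in 2 libraries and lower in 2.

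Upstream sequences are shown for Il1a and Nradd, which moved together with the others, and for Fabp1, which had the largest rise among the named genes. Leap2 had no window. They are RefSeq sequences of the 250 bases before the annotated start (build GRCm38.p6, written 5′ to 3′ on the gene's strand), and capitals mark motif letters found by search on both strands. Il1a lies on the minus strand at chr2:129309973-129310222, Nradd on the minus strand at chr9:110624394-110624643 and Fabp1 on the plus strand at chr6:71199629-71199878.
Il1a: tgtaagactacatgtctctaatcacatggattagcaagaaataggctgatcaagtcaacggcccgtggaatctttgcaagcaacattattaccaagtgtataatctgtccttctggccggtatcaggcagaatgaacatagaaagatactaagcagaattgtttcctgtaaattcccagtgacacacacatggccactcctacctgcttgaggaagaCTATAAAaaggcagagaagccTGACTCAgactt
Nradd: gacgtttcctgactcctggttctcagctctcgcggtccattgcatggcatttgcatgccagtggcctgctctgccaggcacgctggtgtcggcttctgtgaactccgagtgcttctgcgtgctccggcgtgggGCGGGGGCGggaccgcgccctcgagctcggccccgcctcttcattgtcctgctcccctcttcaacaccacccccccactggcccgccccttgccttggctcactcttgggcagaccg
Fabp1: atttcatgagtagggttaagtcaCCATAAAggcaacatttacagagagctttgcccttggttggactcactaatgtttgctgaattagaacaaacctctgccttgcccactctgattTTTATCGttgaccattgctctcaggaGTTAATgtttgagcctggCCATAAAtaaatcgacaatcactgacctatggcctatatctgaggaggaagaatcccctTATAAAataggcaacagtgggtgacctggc
The Il1a window held a TATA box (TATAAA, capitals extended on the left by a CDX-type match on the other strand that overlaps it) 32 bases before the start and an AP-1 site (TGANTCA) 12 bases before it. These letters occurred in 12.4% and 6.75% of 32851 windows of the same length. The Nradd window held an EGR-type sequence (GCGGGGGCG) 117 bases before the start, found in 2.57% of windows, and the form GCGTGGGCG was found in 0.536%. The Fabp1 window held TATAAA 30 bases before the start, an HNF1-type sequence (GTTAAT, 6.43% of windows) 107 bases before it and the CDX-type sequence TTTATNG (9.81% of windows) 89, 133 and 227 bases before it. NF-kB (GGGANTTCC) and HNF4 (CAAAGTCCA) sequences occurred in 1.43% and 0.384% of windows and in none of these 3. The matches describe letters and not binding. Windows were found for 3 of the 5 rule genes, Il1a, Egr2 and Nradd, and for 10 of 12 other genes named below as higher.

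Set against the low cells, the members expressed more of several genes of fat handling and metabolism and less of several keratins, cyclins and hormone-cell genes. Villus tip genes were mixed, and fat absorption genes lost their common direction in members chosen without Leap2, as given below. Of 14480 genes tested, 13.4% were higher (1943) and 9.94% lower (1440) in the members, and 3039 of the 3383 called genes moved the same way in all 4 libraries. Changes were mostly small: 51 genes rose and 460 fell by more than 1 on the log2 scale. With low cells matched on UMIs the calls were 1846, of which 1069 were higher (8.38% of 12763 tested), and with all cells thinned they were 1960.

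The largest rise among the named genes was in Fabp1, the liver-type fatty acid binding protein, at 1.85 ± 0.34 (SE, n = 4 libraries, edgeR adjusted p = 0.00356). Fabp1 is also among the enterocyte genes of which each kept cell had to show 3. Its levels were 337, 2547, 7916 and 7843 CPM in the members and 41.1, 433, 4921 and 4658 CPM in the low cells, higher in every library and by more in the ileum. Apcdd1, an inhibitor of Wnt signalling, rose by 1.79 ± 0.14 (edgeR adjusted p = 1.65e-05), from 4.87, 27.0, 20.8 and 25.03 CPM to 25.4, 74.3, 53.5 and 79.7 CPM. Lect2, which encodes a secreted chemotactic factor known from liver, rose by 1.55 ± 0.14, from 34.2, 128, 230 and 253 CPM to 140, 406, 463 and 539 CPM. Nr0b2, the nuclear receptor SHP of bile acid signalling, rose by 1.37 ± 0.11, from 4.90, 7.69, 33.0 and 45.0 CPM to 10.7, 22.3, 63.0 and 120 CPM. Adora2b, a receptor for extracellular adenosine, rose by 1.32 ± 0.09, from 4.55, 9.61, 43.9 and 31.0 CPM to 12.0, 22.5, 88.8 and 75.7 CPM. In each of these genes the members were above the low cells of the same library, while the regions differed in level. The rises were smaller at equal depth. With cells thinned to 2000 UMIs Fabp1 rose by 1.18, Apcdd1 by 0.93, Lect2 by 1.01, Nr0b2 by 0.98 and Adora2b by 0.94, and with members chosen without Leap2 the same genes had 0.66, 0.41, 0.58, 0.47 and 0.19, of which Adora2b did not pass.

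The remaining named rises were in Fbp1, Phgdh, Ttr, S100a1, Slc46a3, Wdr49 and Gpr50. Fbp1, the gluconeogenic fructose bisphosphatase, rose by 1.16 ± 0.09, from 486, 588, 624 and 580 CPM to 914, 1105, 1393 and 1340 CPM, and its 2 groups did not overlap across libraries. Phgdh, which opens serine synthesis, rose by 1.10 ± 0.08, with 98.1, 122, 48.7 and 15.1 CPM in the members against 46.1, 58.2, 26.5 and 8.72 CPM. Ttr, the carrier of thyroxine and retinol binding protein, rose by 1.11 ± 0.14 and stood at 759, 713, 614 and 650 CPM against 422, 499, 278 and 226 CPM. S100a1, a calcium-binding protein, rose by 1.15, the lysosomal transporter gene Slc46a3 by 1.14, Wdr49 by 1.13 and the orphan receptor gene Gpr50 by 1.11. With thinned cells these 7 genes rose by 0.77 to 0.99. The named genes that rose or fell were chosen by size of change among genes that passed the edgeR test and moved the same way in every library.

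**Figure D3:**
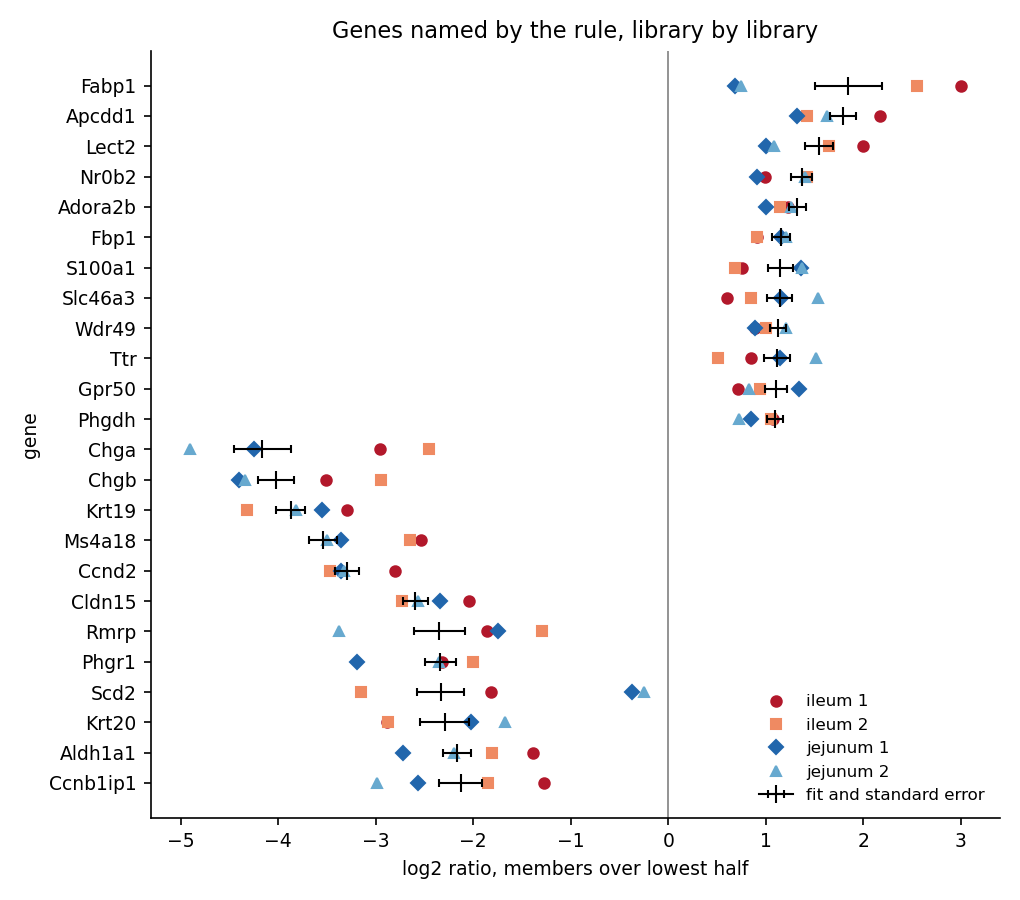
Log2 ratio of members to low cells in each library for the 12 named genes that rose and the 12 that fell, with a prior of 1 CPM, and the edgeR estimate with its standard error (cross). All 4 points lie on the same side of 0 for each gene, and those of Scd2 in the jejunum lie near 0, where its level was below 1 CPM.

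Falls beyond 1 on the log2 scale were more numerous and included genes of hormone cells and of crypts. Chga and Chgb, the chromogranins of hormone granules, had changes of -4.16 ± 0.29 and -4.02 ± 0.18 (edgeR adjusted p = 1.03e-05 and 4.55e-07). Chga stood at 0.521, 2.51, 1.54 and 1.59 CPM in the members and 10.8, 18.3, 47.3 and 76.8 CPM in the low cells. Krt19, a keratin of simple epithelia, fell by 3.87 ± 0.15 (edgeR adjusted p = 1.15e-07), with 4.59, 3.77, 7.05 and 9.74 CPM in the members and 53.7, 94.3, 93.1 and 150 CPM in the low cells. Ccnd2, a cyclin of the G1 phase, fell by 3.29 ± 0.12, with 6.67, 5.23, 7.05 and 9.54 CPM against 52.6, 68.1, 81.4 and 104 CPM. Neither gene's groups overlapped in any pair of libraries. The other named falls were in Ms4a18 (-3.54), the tight junction gene Cldn15 (-2.59), the noncoding RNA Rmrp (-2.35), Phgr1 (-2.34), Krt20 (-2.29), the retinaldehyde dehydrogenase gene Aldh1a1 (-2.17) and Ccnb1ip1 (-2.13). Scd2, a fatty acid desaturase gene, fell by 2.33, from 437 and 216 to 123 and 23.5 CPM in the ileum, while the jejunum libraries were below 1 CPM in both groups. With thinned cells the named falls ran from -4.80 for Chga to -0.99 for Scd2, and Krt19 and Ccnd2 had -3.11 and -2.86.

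Markers of other cell classes moved with these falls. Summed over 10 enteroendocrine markers the members held 42.5 to 49.4 CPM and the low cells 104.6 to 368 CPM, and over 8 goblet markers 60.6 to 201 CPM against 169 to 237 CPM. Of the enteroendocrine markers 8 of 10 fell and 0 rose, with a median of -2.73 on the log2 scale. Without cells that had 2 or more markers of another class, 3596 genes were called, and Chgb fell by 0.66 and did not pass (edgeR adjusted p = 0.126). Chgb is itself among the markers of this filter, so its smaller fall was in part set by the filter. The filter took out 62.5%, 52.0%, 17.8% and 31.9% of members and 49.8%, 41.7%, 20.7% and 19.8% of low cells. Paneth and lymphoid markers were lower in sum in the members of all 4 libraries. Paneth markers summed to 19.9, 13.5, 43.0 and 21.1 CPM in the members against 25.7, 21.9, 71.2 and 47.6 CPM in the low cells, and lymphoid markers to 6.15, 4.71, 28.0 and 27.0 CPM against 6.76, 5.48, 35.0 and 53.9 CPM. Tuft markers summed to 115 to 120 CPM against 102 to 118 CPM, and stromal and endothelial markers to 34.3 to 59.9 CPM against 32.6 to 42.2 CPM. Myeloid markers summed to 223 to 285 CPM in the members and 167 to 200 CPM in the low cells, with 2 to 4 of the 11 markers at 0 in the members and Csf1r alone at 205 to 269.6 CPM of the members' sum. Neutrophil markers, 0.941 to 1.54 CPM, and red blood cell markers, 0.208 to 0.596 CPM, were near 0. The part of other cells in the falls of single genes beyond these values was not tested.

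Lysosomal genes were higher in the members than in the low cells. Of 45 lysosomal genes tested 35 rose and 0 fell, with a median of 0.36 on the log2 scale beside -0.0097 over all genes. Ctsl, a cysteine protease, rose by 0.92, Lamp1, a membrane glycoprotein of the lysosome, by 0.65, Mcoln1, its calcium channel, by 0.58 and Lipa, the acid lipase, by 0.51. With matched low cells 24 rose, beside 8.38% of all genes tested in that fit. With thinned cells 26 rose, where 1160 genes were called higher in all. With members chosen without Leap2 16 rose, and with those cells thinned 0 passed in either direction. Of 27 apical endocytosis genes 8 rose and 0 fell. Among them Amn, the partner of cubilin, rose by 0.55, the scaffold gene Pdzk1 by 0.57, the clathrin light chain gene Cltb by 0.37 and the recycling GTPase gene Rab11a by 0.64. Dab2, the adaptor of the same machinery, had 0.06 and did not pass (edgeR adjusted p = 0.662).

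Fat absorption genes rose in 15 and fell in 2 of 29 cases, with a median of 0.28. Fabp2, the intestinal fatty acid binding protein, rose by 0.98, and the apolipoprotein genes Apoc3 and Apoc2 by 0.64 and 0.62. Those that fell were Fabp6, the ileal bile acid binding protein (-1.91), and Clps, the cofactor of pancreatic lipase (-1.74, chosen after its value was seen). Brush border hydrolases rose in 11 and fell in 3 of 26 cases. Lct, the lactase of the suckling period, rose by 0.84, and the sphingolipid enzymes Asah2 and Enpp7 rose by 0.83 each. Mgam (-1.02) and Sis (-3.24), which encode starch and sucrose enzymes, fell, and Sis was below 6 CPM in the mean of either group. Lct, Fabp2, Apoa4 and Alpi are also genes of the rule that kept the cells, in both groups alike. Sterol synthesis genes went the other way, with 13 lower and 1 higher of 24, among them Sqle at -0.80 and Hmgcs1 at -0.76. Neither the sterol synthesis nor the brush border pattern held when members were chosen without Leap2. Sterol synthesis genes then had 2 higher and 1 lower, with a median of 0.06, and brush border hydrolases 3 higher and 4 lower. Fat absorption genes had 7 higher and 5 lower in that choice, with a median of -0.002. With the 5 genes weighted equally, 2 sterol synthesis genes were higher and 5 lower.

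Crypt and stem genes fell in 12 and rose in 1 of 16 cases, with a median of -1.31, led by Ccnd2, Ccnd1 (-3.28) and Olfm4 (-2.11). Villus base genes fell in 6 of 8 and rose in 0, and keratin and barrier genes fell in 15 and rose in 1 of 27. Villus tip genes were mixed, with 3 higher and 2 lower of 11. Antimicrobial genes fell in 7 of 13, among them Reg4 (-1.62), Lypd8 (-1.61), Dmbt1 (-1.38) and Reg3b (-0.84), and rose in 1, Saa3, in 3 of 4 libraries. Ghrelin and appetite signals, the list nearest to the known role of Leap2, fell in 6 of 9 cases, led by the hormone genes Cck (-3.38) and Ghrl (-3.32), and rose in 1, Apoa4 (0.37). Cck and Ghrl are products of the enteroendocrine cells whose markers moved the same way. Ribosomal protein genes fell in 32 and rose in 1 of 79 cases and mitochondrially encoded genes fell in 11 of 13, but with only cells under 10% mitochondrial UMIs 0 of the latter passed. Ribosomal protein genes turned when members were chosen without Leap2, with 14 higher and 6 lower, and when the 5 genes were weighted equally, with 17 higher and 4 lower. The turn did not hold at equal depth. Without Leap2 and with cells thinned to 2000 UMIs, 0 ribosomal protein genes were higher and 3 lower, with a median of 0.009.

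The lists nearest to Il1a and Egr2 were mixed or had few calls. Of 17 genes of the interleukin 1 family and its receptors 3 rose and 1 fell. The inhibitory receptor gene Sigirr rose by 0.49, and the signalling genes Irak2 and Myd88 by 0.39 and 0.33, while the interleukin 18 receptor gene Il18r1 fell by 1.35. NF-kB targets fell in 5 and rose in 1 of 19 cases, with the inhibitor gene Nfkbia at -0.57, Nfkb2 at -0.56, Relb at -0.38 and Ier3 at 0.35. Of 6 EGR and NAB genes 0 were called in either direction, and Egr1 differed by 0.10 (edgeR adjusted p = 0.643). EGF receptor ligand and MAP kinase feedback genes rose in 3 and fell in 4 of 26 cases, among them the phosphatase gene Dusp6 at 0.91 and the ligand gene Ereg at -1.33. Interferon response genes rose in 7 of 23 and fell in 0, among them Bst2 (0.73), Psmb9 (0.61), Irf9 (0.42, in 3 of 4 libraries) and B2m (0.40). Genes of p53 signalling rose in 7 and fell in 2 of 33, cell death genes rose in 5 and fell in 2 of 27, and unfolded protein response genes rose in 5 and fell in 2 of 23.

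**Figure D4:**
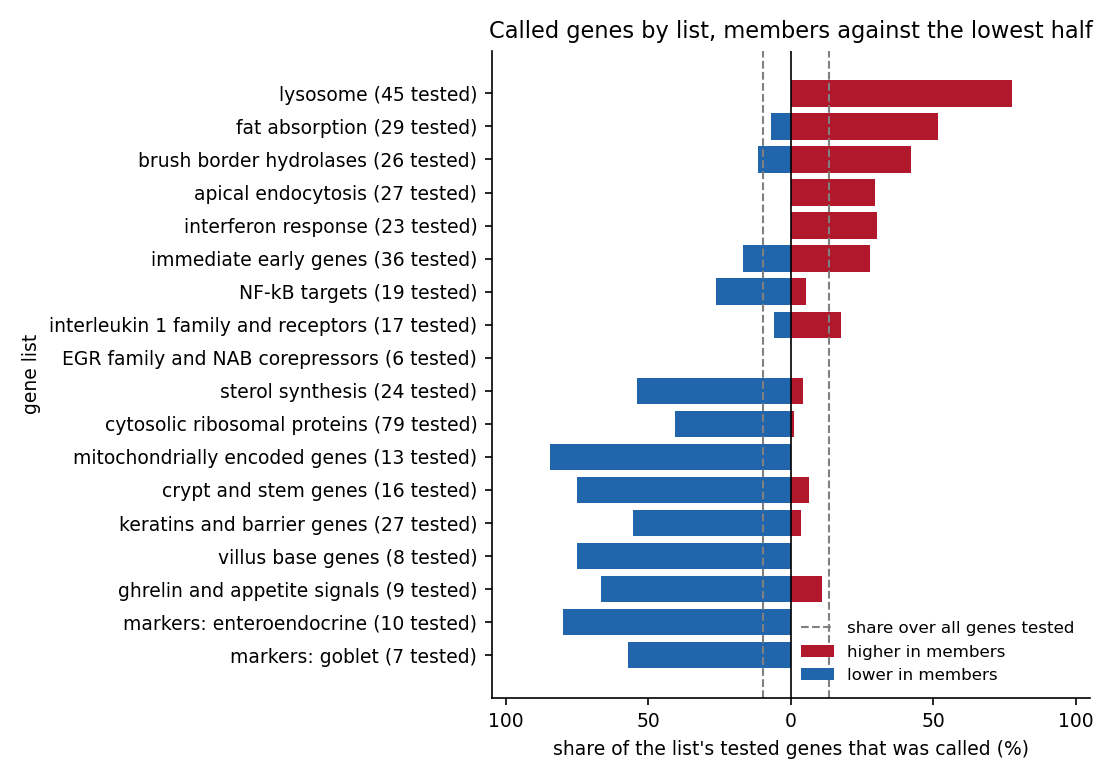
Share of the tested genes of each list called higher (right, red) and lower (left, blue) in the members, with the number tested beside the list name and dashed lines at the shares over all genes tested, 13.4% and 9.94%. Lysosomal genes lie to the right with 35 of 45 called, and crypt and stem genes lie to the left with 12 of 16.

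Because Leap2 filled most of the score, the comparison was repeated with members chosen on the other 4 genes, an alternative added after the data were seen. These cells shared 42.2%, 33.8%, 27.9% and 23.6% with the members. Of 36 immediate early genes, which are transcribed within minutes of a stimulus, 24 were higher and 2 lower in cells chosen without Leap2, against 10 and 6 when all 5 genes were used. Egr2, of the early growth response family, was among the 4 genes that chose these cells and weighed more without Leap2. A rise of other early genes may therefore be partly built into this choice, and how far was not tested. In the same choice 16 of 45 lysosomal genes rose, 7 fat absorption genes rose and 5 fell, and 1 interferon response gene rose and 5 fell. Beside these counts, 10.5% of the 14324 genes tested in this choice were called higher, and 874 genes were called lower. The genes named here were chosen after their values were seen, except Csrnp1 and Junb. Csrnp1 rose by 0.74, the matricellular gene Ccn1 by 0.70, the GTPase gene Rhob by 0.63, the mRNA decay gene Zfp36 by 0.52, Egr1 by 0.51 (edgeR adjusted p = 0.000804), Junb by 0.45 and Fos by 0.31. Ccn1 stood at 385, 439, 361 and 394 CPM in the high cells and 225, 260, 263 and 250 CPM in the low cells, without overlap. Egr1 stood at 320, 177, 222 and 230 CPM against 189, 112, 194 and 195 CPM, higher in each library with overlap across them.

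The early genes were weaker at equal depth. With the same choice and every cell thinned to 2000 UMIs, 281 genes were called, of which 134 were higher (1.2% of 11203 tested), and 11 of 33 early genes were higher and 1 lower. Zfp36 rose by 0.25 (edgeR adjusted p = 7.87e-06), Rhob by 0.33, Ccn1 by 0.32, Egr1 by 0.19 (edgeR adjusted p = 0.0432) and Junb by 0.18, while Fos at 0.13 did not pass. In this fit 0 lysosomal genes passed in either direction, 4 fat absorption genes rose and 3 fell, and 7 enteroendocrine markers were lower.

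Between regions the rule genes were compared over all kept enterocytes, where the choice of members has no bearing. Il1a was higher in the jejunum, at 22.2 and 21.7 CPM against 6.64 and 4.32 CPM in the ileum, a difference of -2.09 ± 0.22 for ileum over jejunum on the log2 scale (SE, n = 2 libraries a region, edgeR adjusted p = 0.0179). In this fit 7.13% of 19921 genes were called in either direction. Leap2 stood at 137 and 311 CPM in the ileum and 734 and 904 CPM in the jejunum, a difference of -1.94 ± 0.42 that did not pass (edgeR adjusted p = 0.0524) and that passed with the mouse as a block (-2.07, edgeR adjusted p = 0.0110). It passed in 8 of 12 alternatives, and not without ileum 1 or without jejunum 2. Glipr1 stood at 12.4 and 17.1 against 22.7 and 27.6 CPM, at -0.85 ± 0.23 (edgeR adjusted p = 0.0855), and it too passed with the mouse as a block (edgeR adjusted p = 0.0177). For these 3 genes every jejunum library was above every ileum library. With 2 libraries against 2 such a separation is common by itself, and its share over all genes was not counted.

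Nradd and Egr2 did not follow them. Nradd stood at 50.5 and 61.4 CPM in the ileum and 42.8 and 33.7 CPM in the jejunum, a difference of 0.47 ± 0.19 (edgeR adjusted p = 0.164). Its regions were separate too, with the ileum higher. Egr2 stood at 19.2 and 15.6 against 13.1 and 18.2 CPM, a difference of 0.06 ± 0.22 (edgeR adjusted p = 0.876), with overlapping regions. With cells thinned to 2000 UMIs, 7.73% and 18.02% of ileal and 43.5% and 48.5% of jejunal enterocytes had 2 or more UMIs of the 5 genes, or 12.9% ± 7.28 against 46.0% ± 3.56 (SD, n = 2). The exact two-sided permutation test gave p = 0.333, the smallest that 2 libraries against 2 allow. Members were taken as 10% of each library, and their median score was 585 and 984 CPM in the ileum and 1843 and 1870 CPM in the jejunum.

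**Figure D5:**
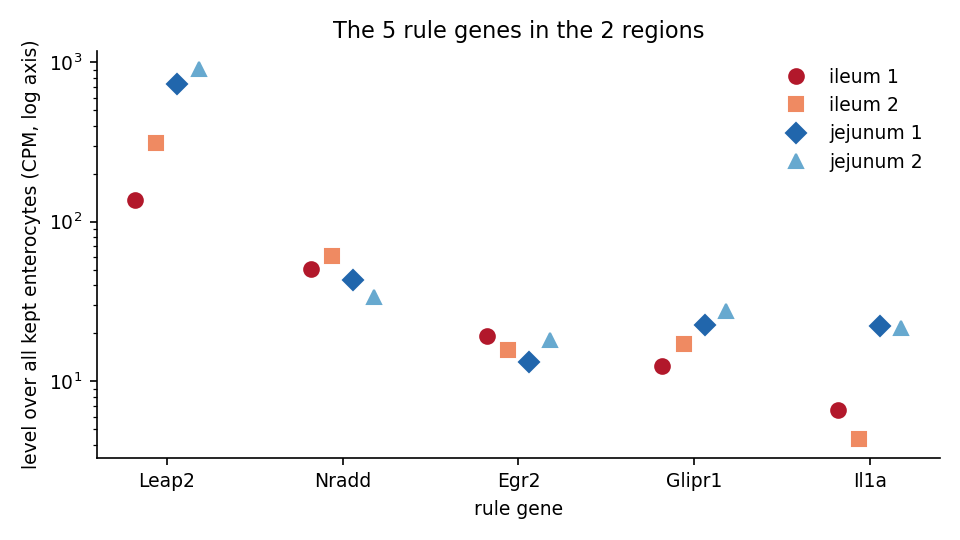
Level of each rule gene over all kept enterocytes in the 4 libraries (CPM, log axis). Il1a, Leap2 and Glipr1 were higher in both jejunum libraries than in both ileum libraries, and Nradd was higher in both ileum libraries.

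Within the members, 3.81% of 12762 genes tested were higher in the ileum and 4.42% were higher in the jejunum, 1050 genes in all, and 2335 were called with the mouse as a block. The genes named for the ileum include the bile acid gene Fabp6, which was higher in ileal low cells too (322 and 523 against 0.516 and 0.506 CPM), and a pair of imprinted noncoding RNAs. Fabp6 had 604 and 1526 UMIs in the ileal members and 2 and 0 in the jejunal members, a ratio of 532 (95% interval 147 to 4397, which covers counting error only, edgeR adjusted p = 0.00301). Scd2 had 1181 and 225 against 2 and 0, a ratio of 351 (97.1 to 2904), Meg3 1742 and 195 against 1 and 3, a ratio of 242 (94.4 to 889), and Rian 351 and 46 against 1 and 2, a ratio of 66.1 (22.5 to 322). For Scd2, Meg3 and Rian the ileal mice differed by over 5-fold. In the low cells too these genes were higher in the ileum than in the jejunum. Scd2 stood there at 437 and 216 against 0.861 and 0.190 CPM. Meg3 stood at 198 and 70.5 against 4.73 and 1.64 CPM, and Rian at 32.0 and 8.80 against 0.861 and 0.316 CPM. Without jejunum 2 these 3 genes did not pass the test, and Meg3 and Rian did not pass without jejunum 1. Rian also missed with only cells under 10% mitochondrial UMIs (edgeR adjusted p = 0.0639).

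The genes named for the jejunum differed between the regions in the low cells too. Mfsd2a stood at 0.738, 0.783, 111 and 439 CPM and Serpina1a at 2.98, 4.29, 177 and 249 CPM in the low cells of the 4 libraries. In the members Mfsd2a, a transporter of lysophospholipids, had 858 and 2686 UMIs in jejunal and 9 and 7 in ileal members, a ratio of 443 (273 to 776, edgeR adjusted p = 0.00136). Serpina1a, a protease inhibitor gene with near-identical copies that make its count uncertain, had 1558 and 1793 against 7 and 31, a ratio of 176 (128 to 250). Cyp2d26, a cytochrome P450 gene, had 180 and 813 against 2 and 9, a ratio of 181 (101 to 363). Cntnap1, a contactin-associated gene, had 69 and 185 against 1 and 2 (ratio 169, 57.3 to 827), and Ltc4s, the leukotriene C4 synthase gene, 63 and 202 against 2 and 2 (ratio 133, 51.2 to 490). These 5 genes passed under all 14 alternatives run.

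A test of the difference itself asked where members and low cells differed by an unequal amount in the regions. Of 15723 genes, 1.22% passed in either direction, 94 with a larger value in the ileum and 98 in the jejunum. Fabp1 showed the largest difference among the named genes, 2.05 ± 0.15 (edgeR adjusted p = 1.53e-05), since members exceeded low cells by a mean of 2.78 in the ileum and 0.72 in the jejunum on the log2 scale. With cells thinned to 2000 UMIs the difference was 0.82, below that of Zfp318 (1.04) and Trim58 (1.28), and with members chosen without Leap2 it was 0.57. Ifit3, an interferon-induced gene, differed by -1.71 ± 0.26 (edgeR adjusted p = 0.00733), with a mean of -0.46 in the ileum and 1.18 in the jejunum, so that it was higher in members of both jejunum libraries (103 and 62.2 CPM against 44.9 and 26.8 CPM). Tfrc, the transferrin receptor, differed by 1.46 (edgeR adjusted p = 0.0130), falling from 23.9 and 26.2 CPM in jejunal low cells to 6.39 and 6.95 CPM in jejunal members. Trf, which encodes transferrin itself, differed by -1.67 (edgeR adjusted p = 0.0165), with 28.9 and 10.3 CPM in ileal members against 65.9 and 42.3 CPM in ileal low cells. The count depended on the setting, from 10 with members chosen without Leap2 and cells thinned to 787 without jejunum 2, and it was 41 without cells holding markers of another class.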

How the data were processed

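Single-cell libraries of P6 jejunum and ileum epithelium, 2 mice by 2 regions, were analysed. Per the labels and methods, reads were processed with PIPseeker at sensitivity 3, and the submitters' processing notes name the build GRCm39. The deposited matrices hold whole-number UMI counts of 32227 genes per called cell. No doublet caller was run. The members and gene lists were chosen with earlier results of these data known.

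Counts were summed per library and group and tested with edgeR 4.0.16 (quasi-likelihood, TMM, filterByExpr, adjusted p under 0.05 after Benjamini-Hochberg adjustment, R 4.3.3), with the library as a block between groups and without a block between regions. Genes were named when their mean was at least 20 CPM in a group, their adjusted p passed and all libraries moved the same way, by size of fold change. By the series design each mouse gave both regions, so same-numbered libraries are paired: their deviations correlated at 0.254 over 12767 genes in the members. Libraries are not independent animals (2 mice). With the library as a block, p-values measure how the difference within a library varies between libraries. Between regions, without a block, they measure the spread between libraries of a region. Alternatives covered depth, thresholds, scaling, DESeq2 1.42.0 and libraries left out. Fits were tested on simulated data. A gene that the naming rule picked between regions is not reported here.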

Additional observations from a re-analysis of the deposited data

Results flagged for a closer look

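The fits of the difference between regions picked out 10 genes in which members and low cells differed by an unequal amount in ileum and jejunum (edgeR, adjusted over all genes tested; positive values mean a higher ratio of members to low cells in the ileum). Fabp1 had a difference of 2.05 on the log2 scale, Gstm2 1.63, Zfp318 1.502, Tfrc 1.46 and Trim58 1.35. In Gstm2, Zfp318, Tfrc and Trim58 the members were lower than low cells in both regions on average, by more in the jejunum, with adjusted p = 0.00216, 0.0306, 0.0130 and 0.0474. Krt20 had a difference of -1.86, Cyp2d26 -1.82, Ifit3 -1.71, Trf -1.67 and Serpina1a -1.64. Of these, Ifit3 and Serpina1a were below the low cells in the ileum and above them in the jejunum on average, at -0.46 and 1.18 for Ifit3 and -0.76 and 0.73 for Serpina1a.

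With thinned cells the Fabp1 difference fell to 0.82. Over 18 alternatives the calls held in 17 for Fabp1, 16 for Trf, 15 for Krt20, 14 for Gstm2, Tfrc and Ifit3, 11 for Zfp318, 10 for Serpina1a, 9 for Cyp2d26 and 8 for Trim58. Leaving out 1 library ended the call of Cyp2d26 (ileum 1 or ileum 2), Serpina1a (ileum 1), Trim58 (ileum 2 or jejunum 2) and Zfp318 (jejunum 2). With members chosen without Leap2 and thinned cells 0 of the 10 passed. The ileal levels of Cyp2d26 and Serpina1a were under 5 CPM in both groups, and depth differed between the regions.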

How the results depend on the processing

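Members against low cells gave 3383 called genes, 1960 with cells thinned to 2000 UMIs, 1846 with low cells matched on UMIs, 1947 against all other kept enterocytes, 281 without Leap2 and thinned, and 1987 to 3307 with 1 library left out (1987 without jejunum 2, 2178 without ileum 2). Without the library block 22 were called, and the left-out genes Il1a, Nradd and Leap2 had 0.83, 1.33 and 0.45 on the log2 scale and did not pass. The left-out values ranged with 1 library left out from 0.87 to 1.09 for Il1a, 1.25 to 1.42 for Nradd, 0.50 to 0.69 for Leap2, 0.04 to 0.22 for Glipr1 and 0.00 to 0.21 for Egr2. Glipr1 reached 0.45 (edgeR adjusted p = 0.0212) when cells were chosen on all 5 genes, Glipr1 included, and measured on separate UMIs. It turned to -0.0859 without cells holding markers of another class. Egr2 turned to -0.0583 with matched low cells. Choices without Leap2, thinned, turned Apcdd1 to -0.0589 and Gpr50 to -0.14, and 13 of the 24 named genes passed there. Of 383 values of named genes under alternatives, 368 kept their direction and call. That count leaves out the fits without the library block, without a count filter and with equal weights. The named genes had been picked for passing the main test. Of the genes called without the library block, 1 was higher and 21 were lower.

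Region calls within members were 1050, 671 without a count filter, 2335 with the replicate block and 193 to 1589 with 1 library left out (193 without jejunum 2, 532 without jejunum 1, 1589 without ileum 2). Over all kept enterocytes they were 1421, 3045 by DESeq2, 2 without a count filter, 3030 with the replicate block and 80 to 1646 with 1 library left out (80 without ileum 1, 438 without ileum 2, 530 without jejunum 2). Il1a passed in 11 of 12 of these settings and missed without a count filter (edgeR adjusted p = 0.0594). The share of cells with 2 or more UMIs differed by -38.3 to -28.0 percentage points with 1 library left out. Interaction calls were 192, 111 thinned, 345 matched, 439 with the highest 20%, 52 against all other cells, 41 without cells holding markers of another class, 115 by DESeq2, 502 without a count filter, 58 with equal weights, 67 without Leap2, 10 without Leap2 and thinned, and 113 to 787 with 1 library left out (113 without ileum 1, 667 without jejunum 1, 787 without jejunum 2). Equal weights and the choices without Leap2 were added after the data were seen.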
